A study of Mus musculus with 6 samples.

Results

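The myeloid C-type lectin receptors are a family of cell-surface receptors on macrophages, monocytes, dendritic cells and neutrophils, each with a C-type lectin domain outside the cell. The set examined held 10 genes, chosen by name (Clec4d, Clec4e, Clec4n, Clec5a, Clec7a, Clec4a2, Clec12a, Clec4a1, Clec4a3 and Clec10a), and all 10 were found among the 24984 genes listed in the count files. RNA sequencing had been carried out on inguinal white fat, a depot under the skin of the mouse. One group was wild type on a high-fat diet (WT HFD, n = 3) and the other carried an Mpst knockout on the same diet (Mpst KO HFD, n = 3), so that both groups shared the diet and no group on another diet was analysed here. Mpst encodes a sulfurtransferase that produces hydrogen sulfide. Strain, sex, age, knockout allele, length of the diet and any pooling of animals are not given in the labels. The labels number the replicates without saying that they are separate animals, so p-values reflect only how far these samples spread, and that spread may be technical.

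Activating members of the family signal through an immunoreceptor tyrosine-based activation motif, either on a partner chain (FcRγ, encoded by Fcer1g, for Clec4d, Clec4e and Clec4n, and DAP12, encoded by Tyrobp, for Clec5a) or in their own tail (Clec7a, known as Dectin-1). The kinase Syk and the adaptor CARD9 then pass the signal to NF-kB. Inhibitory members, here Clec4a2 (DCIR) and Clec12a (MICL), carry an inhibitory tyrosine motif that recruits the phosphatases SHP-1 (Ptpn6) and SHP-2 (Ptpn11). Clec4a1 and Clec4a3, mouse paralogs of Clec4a2, and Clec10a, an endocytic receptor for galactose and N-acetylgalactosamine, were kept as a group of their own. In adipose tissue these receptors are known mostly from macrophages and dendritic cells.

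Libraries held 8054560 to 22458630 counts in genes, with knockout replicate 1 the shallowest. Mpst itself, the check of the labels, stood at 81.1 ± 5.01 CPM (a read count relative to the normalised library total) in the wild-type group (SD, n = 3) against 0.393 ± 0.0424 CPM in the knockout group (SD, n = 3), so every library matched its genotype. Transcripts of skeletal muscle, a neighbouring tissue, were highest in wild-type replicate 2 (813 CPM summed over 8 genes) and knockout replicate 3 (1920 CPM), against 34.7 to 140.3 CPM in the other libraries. The adipocyte list, 8 genes that mark the labelled tissue, summed to 54506 to 65304 CPM in wild type against 35425 to 43774 CPM in knockout. Neutrophil and mammary lists, by contrast, summed to at most 58.6 and 0.440 CPM in any library.

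Of the 10 genes, 9 lie on chromosome 6 of GRCm38, the assembly behind the mm10 build of the files. Clec4a1 (122921848 to 122934619), Clec4a3 (122952515 to 122969875), Clec4a2 (123106428 to 123143999), Clec4n (123229843 to 123247021), Clec4d (123262111 to 123275265) and Clec4e (123281789 to 123289870) form a cluster. Clec4d on the plus strand and Clec4e on the minus strand end 6524 bases apart, tail to tail. Clec12a (129342691 to 129365303) and Clec7a (129461591 to 129472779) lie farther along the chromosome, and Clec5a (40574894 to 40585821) lies apart. Clec10a (70156197 to 70170834) is on chromosome 11. No exon of a member overlapped an exon of another gene in GENCODE M21 on either strand. Windows of 75 bases, the read length, were unique to the gene's own transcripts except for 3.24% of those of Clec4a2, shared with Clec4a4 and Clec4b1, and 4.44% of those of Clec10a, shared with Mgl2, so the counts of these 2 genes are uncertain to that extent.

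Start-site sequences from RefSeq (GRCm38.p6) were matched by symbol for 8 of the 10 members, all but Clec4n and Clec10a. The 250 bases upstream of the start are shown for Clec4d, the member with the largest fold change, for its neighbour Clec4e, which had the lowest level, for Clec7a, which rose, and for Clec4a1, which was not called. Capitals mark the letters GAGGAA or their reverse complement TTCCTC, a core of the motif of PU.1, a transcription factor of myeloid cells. The windows are chr6:123261857-123262106 (plus strand) for Clec4d, chr6:123289872-123290121 (minus strand) for Clec4e, chr6:129472780-129473029 (minus strand) for Clec7a and chr6:122921598-122921847 (plus strand) for Clec4a1.
Clec4d: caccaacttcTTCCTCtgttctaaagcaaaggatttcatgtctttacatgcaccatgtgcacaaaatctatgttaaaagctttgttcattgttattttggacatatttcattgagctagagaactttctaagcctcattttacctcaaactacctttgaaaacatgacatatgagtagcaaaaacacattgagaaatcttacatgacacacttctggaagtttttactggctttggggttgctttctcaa
Clec4e: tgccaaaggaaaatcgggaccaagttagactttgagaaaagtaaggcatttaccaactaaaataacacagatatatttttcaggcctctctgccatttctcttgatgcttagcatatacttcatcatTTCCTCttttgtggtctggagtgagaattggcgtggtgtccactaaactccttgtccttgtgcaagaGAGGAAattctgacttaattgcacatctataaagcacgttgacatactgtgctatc
Clec7a: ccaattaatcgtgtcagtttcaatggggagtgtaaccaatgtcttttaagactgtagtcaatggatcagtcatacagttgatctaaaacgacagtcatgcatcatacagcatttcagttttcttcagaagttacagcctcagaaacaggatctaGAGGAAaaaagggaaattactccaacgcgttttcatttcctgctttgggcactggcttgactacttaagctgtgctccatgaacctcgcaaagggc
Clec4a1: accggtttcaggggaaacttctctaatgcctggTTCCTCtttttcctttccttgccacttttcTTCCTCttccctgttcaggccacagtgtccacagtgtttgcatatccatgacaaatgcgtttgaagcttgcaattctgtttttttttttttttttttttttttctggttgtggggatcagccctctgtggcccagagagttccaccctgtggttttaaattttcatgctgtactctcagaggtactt
These letters occurred in 8 of the 10 upstream windows listed for members (Clec4a3 and Clec7a have 2 overlapping windows each), and in 7 of the 8 genes, the Clec4a2 window being without them. Of all 32851 upstream windows of the same length, 23.3% held them. The AP-1 letters TGANTCA were found in 1 member window (Clec12a) and in 6.75% of all windows. The C/EBP letters TTGCNNAA were found in 2 member windows (Clec4e and Clec12a) and in 9.56% of all windows, and an NF-kB motif in no member window and in 1.41% of all. Both strands were searched, and no PU.1 match in a member overlapped a match of another motif. The windows of Clec4a2 (chr6:123122440-123122689) and Clec12a (chr6:129349994-129350243) lie inside the gene spans given above. Each overlaps an exon of its own gene, and starts outside the RefSeq set were not searched. A match is a description of the letters, not evidence of binding.

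Receptor transcripts of this set were more abundant in the knockout tissue. All 10 genes were higher in each knockout library than in any wild-type library, against 17.8% of the 14065 tested genes whose libraries did not overlap in that direction and 15.5% in the other. At an adjusted p under 0.05 (edgeR's quasi-likelihood test, Benjamini-Hochberg over all tested genes), 4 of the 10 rose and none fell, against 4.76% of all tested genes that rose and 2.65% that fell. The 4 were the activating receptors Clec4d, Clec4n and Clec7a and the inhibitory receptor Clec12a. The median log2 fold change was 1.005 over the 10 members and 0.01 over all tested genes. All 10 passed the filter on low counts, which asks for about 0.508 CPM in 3 libraries. Clec4d reached that level in 2 wild-type libraries and Clec4e in none, so neither could pass on its wild-type libraries alone. Clec4e passed only through its 3 knockout libraries, and Clec4d, a called gene, passed only with knockout libraries added. The other 8 reached the level in every library. Calls over the whole table, and with them those of the members, depended on single libraries. None of the 10 members was called without wild-type replicate 2, knockout replicate 1, knockout replicate 2 or knockout replicate 3, and in those fits 0, 41, 1 and 1 of all tested genes were called higher, against 669 with all libraries. Without both libraries highest in muscle transcripts no member was called, and 0 of all tested genes were called higher. Without wild-type replicate 3 there were 8 called members (background 10.1% of tested genes) and without wild-type replicate 1 there were 4 (background 3.73%). The fold changes moved less: over the 6 fits that each leave out 1 library the log2 fold change was 2.54 to 3.61 for Clec4d, 1.204 to 1.77 for Clec4n, 1.002 to 1.598 for Clec7a and 0.99 to 1.49 for Clec12a. With all libraries DESeq2 called 7 members higher (background 7.2% of tested genes) and limma-voom 5 (background 4.98%).

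**Figure D1:**
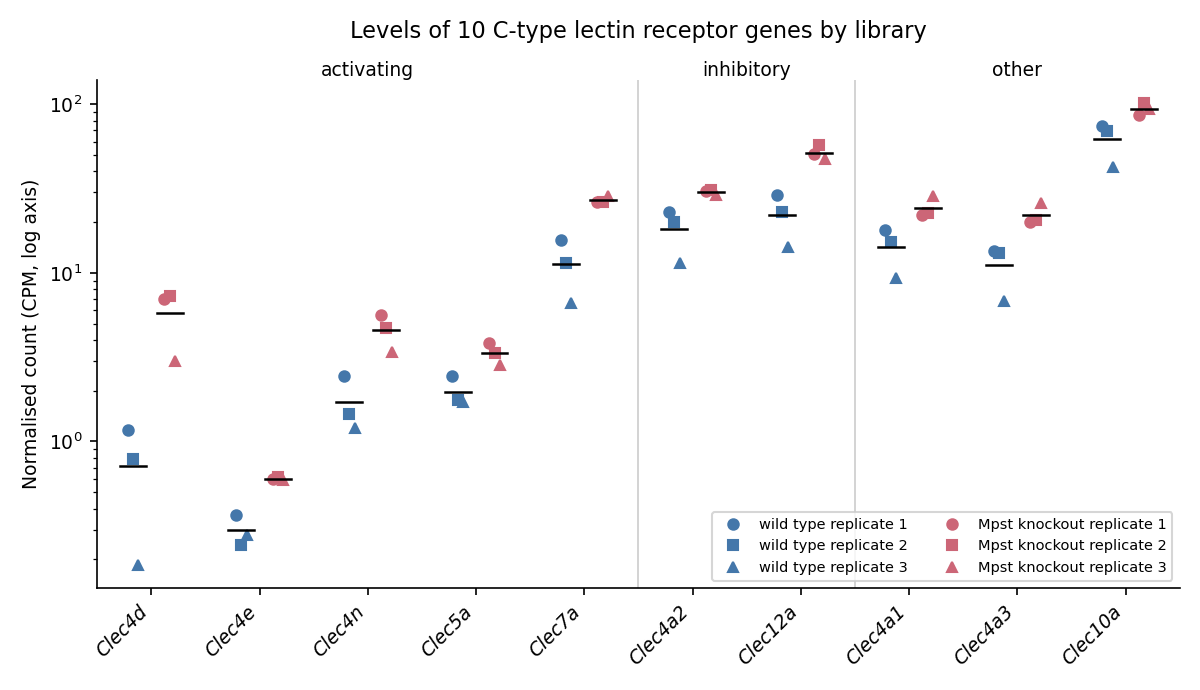
Normalised count (CPM, log axis) of each of the 10 receptor genes in the 6 libraries, blue for wild type and red for Mpst knockout, with the symbol giving the replicate and the bar the group mean. In each gene the 3 red points lie above the 3 blue points, from Clec4e under 1 CPM to Clec10a, which reached 102 CPM.

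Among the activating receptors, Clec4d (MCL, also called Dectin-3, a receptor for mycobacterial glycolipid and fungal mannan) had the largest fold change of the set. Its level was 1.16, 0.790 and 0.186 CPM in wild-type replicates 1, 2 and 3 against 7.03, 7.26 and 3.01 CPM in the knockout replicates. The raw counts were 19, 13 and 4 against 59, 165 and 71. The groups did not overlap, although knockout replicate 3 was lower than the other knockout libraries and wild-type replicate 3 lay lowest of all 6. Clec4d rose 8.21-fold (log2 fold change 3.04, SE 0.57, edgeR adjusted p = 0.0242). Without wild-type replicate 3 the log2 fold change was 2.54, and without wild-type replicate 1 it was 3.61.

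Clec4n (Dectin-2, a receptor for fungal mannan) was at 2.45, 1.46 and 1.21 CPM in the wild-type libraries against 5.60, 4.71 and 3.40 CPM in the knockout libraries. All 3 knockout libraries exceeded the highest wild-type library, by at least 1.38-fold. It rose 2.66-fold (log2 fold change 1.41, SE 0.34, edgeR adjusted p = 0.0428). Clec7a (Dectin-1, the receptor for fungal beta-glucan) stood at 15.6, 11.5 and 6.59 CPM in wild type against 26.5, 26.3 and 28.4 CPM in knockout. Its knockout libraries lay within 1.08-fold of each other, while the wild-type libraries spanned 2.37-fold. Clec7a rose 2.42-fold (log2 fold change 1.28, SE 0.27, edgeR adjusted p = 0.0311).

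Both remaining activating receptors were not called. Clec5a (MDL-1, a DAP12 partner known as a dengue virus receptor) had 2.45, 1.76 and 1.72 CPM in wild type against 3.82, 3.35 and 2.84 CPM in knockout. The groups were separated by a narrow gap, the lowest knockout library being 1.16-fold above the highest wild-type library (log2 fold change 0.74, SE 0.27, edgeR adjusted p = 0.121). Clec4e (Mincle, a receptor for mycobacterial glycolipid and for a ligand from dead cells) had raw counts of only 6, 4 and 6 in wild type against 5, 14 and 14 in knockout. Scaled to depth these were 0.368, 0.243 and 0.279 CPM against 0.596, 0.616 and 0.594 CPM (log2 fold change 1.01, SE 0.41, edgeR adjusted p = 0.151). With libraries thinned to the depth of the shallowest, Clec4e no longer reached the filter.

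Of the inhibitory receptors, Clec12a (MICL, which binds uric acid crystals and restrains myeloid activation) was at 29.1, 23.0 and 14.2 CPM in wild type against 50.4, 57.1 and 47.5 CPM in knockout. The lowest knockout library was 1.64-fold above the highest wild-type library. It rose 2.35-fold (log2 fold change 1.23, SE 0.23, edgeR adjusted p = 0.0243). Clec4a2 (DCIR) stood at 23.0, 19.999 and 11.5 CPM in wild type against 30.8, 31.1 and 28.9 CPM in knockout. The knockout libraries were close together and all above wild type, by 1.258-fold or more, but the gene did not pass the test (log2 fold change 0.74, SE 0.23, edgeR adjusted p = 0.0799).

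None of the 3 members outside these groups was called. Clec4a3 came nearest, at 13.5, 13.2 and 6.83 CPM in wild type against 20.03, 20.5 and 26.0 CPM in knockout (a log2 fold change of 0.996, SE 0.26, edgeR adjusted p = 0.0501). It was called by DESeq2 (adjusted p = 0.00572) and by limma-voom (adjusted p = 0.0426). Its neighbour Clec4a1 had 17.9, 15.3 and 9.29 CPM against 21.9, 22.6 and 28.7 CPM (log2 fold change 0.80, SE 0.24, edgeR adjusted p = 0.0717). In both of these genes knockout replicate 3 was the highest library, whereas in Clec4d, Clec4e, Clec4n, Clec5a, Clec4a2 and Clec12a it was the lowest of the knockout libraries. Clec10a (MGL1) was the most abundant member, at 74.2, 69.8 and 42.3 CPM in wild type against 86.3, 102 and 93.7 CPM in knockout. Its fold change was the smallest of the 10, 1.52-fold (log2 fold change 0.60, SE 0.20, edgeR adjusted p = 0.0964).

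**Figure D2:**
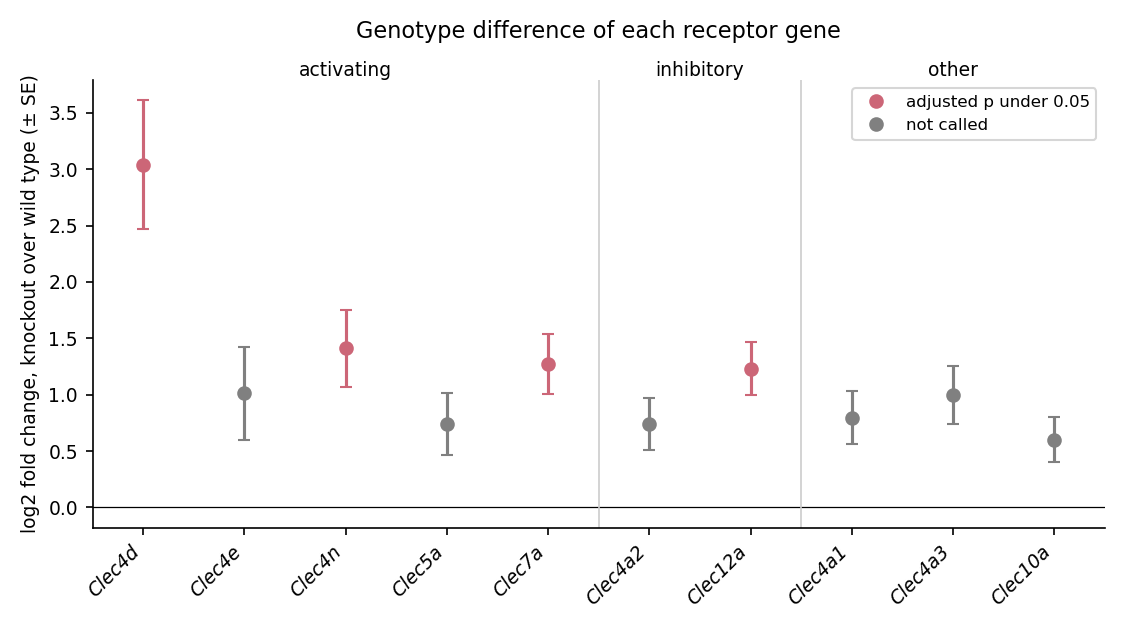
Log2 fold change of each receptor gene, knockout over wild type, with its standard error, grouped as activating, inhibitory and other. Points in red passed an adjusted p of 0.05 and grey points did not. All 10 lie above 0, from 0.60 in Clec10a to 3.04 in Clec4d.

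Activating and inhibitory receptors were not set apart by a direction, since members of both groups were higher in knockout. The mean log2 level (CPM plus 0.5) of the 5 activating genes minus that of the 2 inhibitory genes was −3.19, −3.32 and −2.96 in the wild-type libraries against −2.81, −2.98 and −3.13 in the knockout libraries. The groups overlapped, and the difference between their means was 0.18. It was 0.10 without wild-type replicate 2 or without knockout replicate 1, and 0.28 without wild-type replicate 3. Without Clec4d it was −0.11, so its sign rested on that gene. The summed level of the activating genes divided by that of the inhibitory genes was 0.424, 0.366 and 0.389 in wild type against 0.536, 0.479 and 0.5003 in knockout, which did not overlap. Clec7a alone made up 60.8% to 74.3% of the activating sum. Clec4d made up 0.197% to 0.648% of the counts of the 10 members in wild type against 1.15% to 2.78% in knockout, and Clec10a 41.3% to 44.97% against 34.1% to 37.0%. These are descriptions over a list chosen with earlier results known and were not tested.

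Levels of different genes were compared per kilobase of exon. In wild type Clec10a led with 21.4 ± 5.96 CPM per kilobase (SD, n = 3). It was followed by Clec4a1 (9.08 ± 2.83), Clec4a3 (8.43 ± 2.85), Clec4a2 (6.21 ± 2.03), Clec7a (4.26 ± 1.71) and Clec12a (3.99 ± 1.36), in CPM per kilobase, and among these 5 neighbours in the order differed by less than the larger of their SDs. Clec4n (1.201 ± 0.463), Clec5a (0.515 ± 0.107), Clec4d (0.446 ± 0.309) and Clec4e (0.0597 ± 0.0129) were lower on the same scale, with Clec5a and Clec4d within their spread. In knockout Clec10a again led with 32.4 ± 2.67 CPM per kilobase, and Clec4a3 (16.7 ± 2.50) and Clec4a1 (15.7 ± 2.39) did not differ beyond their spread. Clec4a2 (10.3 ± 0.401), Clec7a (10.3 ± 0.438) and Clec12a (9.35 ± 0.890) came next, with Clec12a below Clec7a by slightly more than the larger of their SDs. Clec4d, at 3.61 ± 1.49 CPM per kilobase, lay beside Clec4n (3.22 ± 0.782) and above Clec5a (0.868 ± 0.127), and Clec4e was again lowest (0.121 ± 0.00245).

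Within wild type the members varied together. All 10 were highest in wild-type replicate 1 and 9 were lowest in wild-type replicate 3, Clec4e being lowest in replicate 2. The span from lowest to highest wild-type library was 1.43-fold to 2.37-fold in 9 members and 6.27-fold in Clec4d. In knockout the spans were 1.04-fold to 1.65-fold in 9 members and 2.41-fold in Clec4d. The summed level of 14 macrophage genes moved with the members, at 1716, 1474 and 901 CPM in the wild-type libraries against 2300, 2516 and 2483 CPM in the knockout libraries. Of these 14 genes, 7 rose and none fell (background 4.76% and 2.65% of tested genes), with a median log2 fold change of 0.86. Itgam (CD11b) rose by 1.55 (edgeR adjusted p = 0.0119) and Msr1 (a scavenger receptor) by 1.499 (edgeR adjusted p = 0.0149) on the log2 scale. In bulk tissue, more cells of a type and more RNA per cell cannot be told apart, and the part of macrophage content in the receptor differences was not tested.

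Counts of each member were therefore also set against the summed counts of the macrophage list, a ratio added after the data had been seen. Clec4d had 0.679, 0.536 and 0.206 counts per 1000 macrophage-list counts in wild type against 3.06, 2.89 and 1.21 in knockout, with no overlap. Clec7a had 9.11, 7.80 and 7.32 against 11.5, 10.5 and 11.4, also with no overlap. Clec12a had 16.9, 15.6 and 15.7 against 21.9, 22.7 and 19.1, and its groups did not overlap either. Clec10a was lower in every knockout library on this scale, at 43.2, 47.4 and 46.9 in wild type against 37.5, 40.5 and 37.7 in knockout. Clec4a2 was nearly level, at 13.4, 13.6 and 12.8 against 13.4, 12.4 and 11.6, with overlap. Clec4e, Clec4n, Clec5a, Clec4a1 and Clec4a3 overlapped as well.

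The knockout mean of this ratio was 5.04 times the wild-type mean for Clec4d, 1.38 times for Clec7a, 1.32 times for Clec12a and 0.842 times for Clec10a. With 3 libraries against 3, an exact two-sided permutation test cannot give a p below 0.1. The choice of denominator mattered. Against the geometric mean of the same 14 genes the values were 4.56, 1.27, 1.22 and 0.780, and Clec4d was then the only member higher in every knockout library. Against Csf1r alone (111 ± 26.3 CPM in wild type against 164 ± 23.4 CPM in knockout, edgeR adjusted p = 0.103, not called) the values were 6.24, 1.70, 1.64 and 1.05, and Clec4d, Clec7a, Clec12a and Clec4a3 were higher in every knockout library. Clec10a was lower in every knockout library with the geometric mean and overlapped with Csf1r. The share of all tested genes that would separate on these ratio scales was not counted, so these counts of members have no background.

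**Figure D3:**
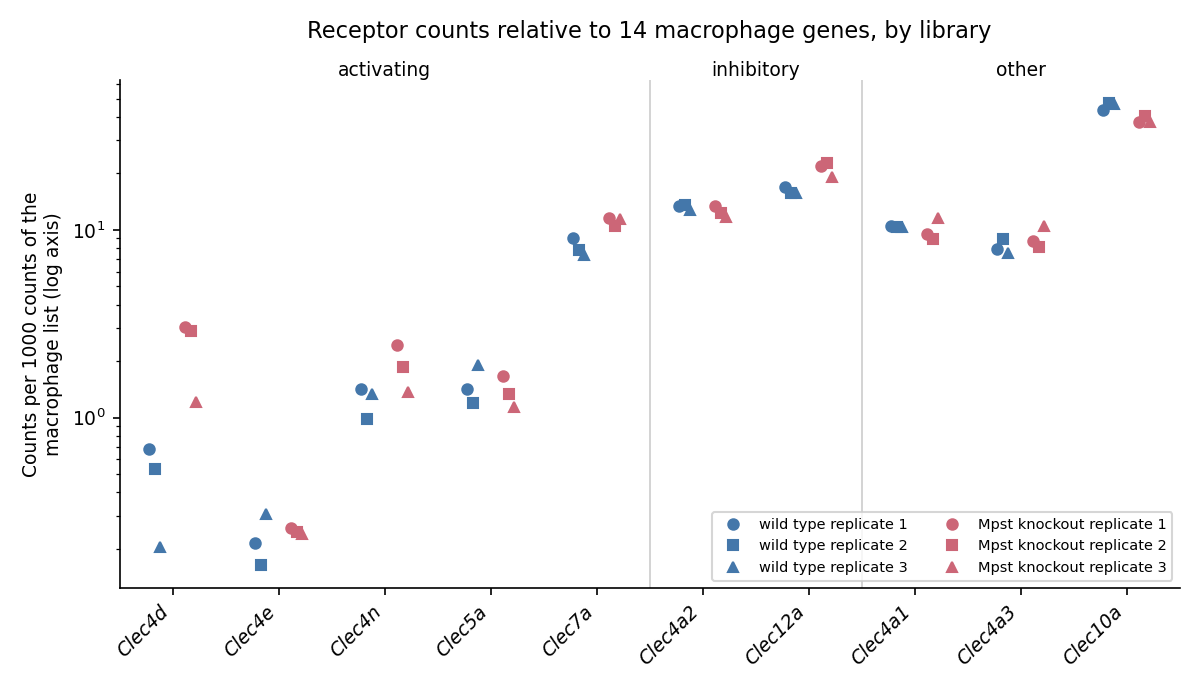
Counts of each receptor gene per 1000 summed counts of 14 macrophage genes (log axis) in the 6 libraries, blue for wild type and red for Mpst knockout. Clec4d, Clec7a and Clec12a have red points above all blue points, Clec10a has red points below them, and the other 6 genes overlap.

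Lists of other myeloid cells and states did not all move in the same way. Of 10 lipid-associated macrophage genes 4 rose and none fell (background 4.76% and 2.65% of tested genes), among them Gpnmb (log2 fold change 2.48, edgeR adjusted p = 0.0119) and Lipa (1.11, edgeR adjusted p = 0.0119). Their summed level overlapped between the groups (11808 to 19947 CPM in wild type against 15180 to 19662 CPM in knockout), at least 86.2% of it being Lpl, which adipocytes also express. Without Lpl the sums were 1075 to 1838 CPM against 2019 to 2709 CPM and did not overlap. Of 7 resident macrophage genes only Mrc1 rose (edgeR adjusted p = 0.0335), with sums of 219.5 to 372 CPM and 370.1 to 431 CPM. The log2 fold change was above 0 in 4 of the 7. Timd4 was lower in every knockout library than in any wild-type library but was not called (log2 fold change −0.93, edgeR adjusted p = 0.108). None of the 10 monocyte genes was called, and the list summed to 193 to 340 CPM and 308 to 322 CPM. None of the 10 dendritic cell genes was called either (sums of 1439 to 1981 CPM and 1188 to 1618 CPM, of which Cst3 made up at least 92.3%). Of 10 neutrophil genes 4 were tested and none was called, with sums of 21.2 to 58.6 CPM and 40.2 to 49.8 CPM. Among their defining genes Ngp had no count in any library, and Ly6g had 1 count in wild-type replicate 1 and 0 in the other libraries. The median log2 fold change was 1.09 over the lipid-associated list, 0.44 over the resident list, 0.11 over the monocyte list and −0.08 over the dendritic cell list. The part of these cell types in the receptor differences was not tested.

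The adaptors that carry the activating signal were not called. Fcer1g stood at 66.8 ± 24.4 CPM in wild type against 88.9 ± 4.604 CPM in knockout, with overlap (log2 fold change 0.41, edgeR adjusted p = 0.291). Tyrobp had 90.8, 67.0 and 37.5 CPM against 105.8, 133.5 and 101.8 CPM, with no overlap (0.81, edgeR adjusted p = 0.104). Hcst, which encodes the adaptor DAP10, was at 3.67 ± 0.406 and 3.79 ± 1.204 CPM. Syk, the kinase that docks on the activated motif, was at 29.9 ± 4.10 and 44.0 ± 10.6 CPM (0.57, edgeR adjusted p = 0.0927).

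In the list of 11 adaptors and proximal kinases 2 rose and none fell (background 4.76% and 2.65% of tested genes). These were Prkcd, the kinase that phosphorylates CARD9 (26.4 ± 4.02 to 51.1 ± 6.33 CPM, 0.96 on the log2 scale, edgeR adjusted p = 0.0156), and the Src-family kinase Lyn (0.58, edgeR adjusted p = 0.0300). None of the 13 genes of the CARD9 complex and NF-kB was called by edgeR. Card9 itself was at 3.69 ± 1.24 and 6.29 ± 0.525 CPM (0.78, edgeR adjusted p = 0.102). Of 4 listed phosphatases 3 rose. Ptpn6, encoding SHP-1, went from 13.7 ± 3.62 to 24.0 ± 2.60 CPM (0.82, edgeR adjusted p = 0.0467), Inpp5d, encoding SHIP1, from 19.96 ± 1.88 to 32.4 ± 3.84 CPM (0.70, edgeR adjusted p = 0.0270), and Ptprc, encoding CD45, from 18.2 ± 9.10 to 51.4 ± 10.7 CPM (1.51, edgeR adjusted p = 0.0312). Ptpn11, encoding SHP-2, was not called (0.09, edgeR adjusted p = 0.789). The median log2 fold change was 0.57 over the adaptors and kinases, 0.36 over the CARD9 list and 0.76 over the phosphatases, against 0.01 over all tested genes.

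**Figure D4:**
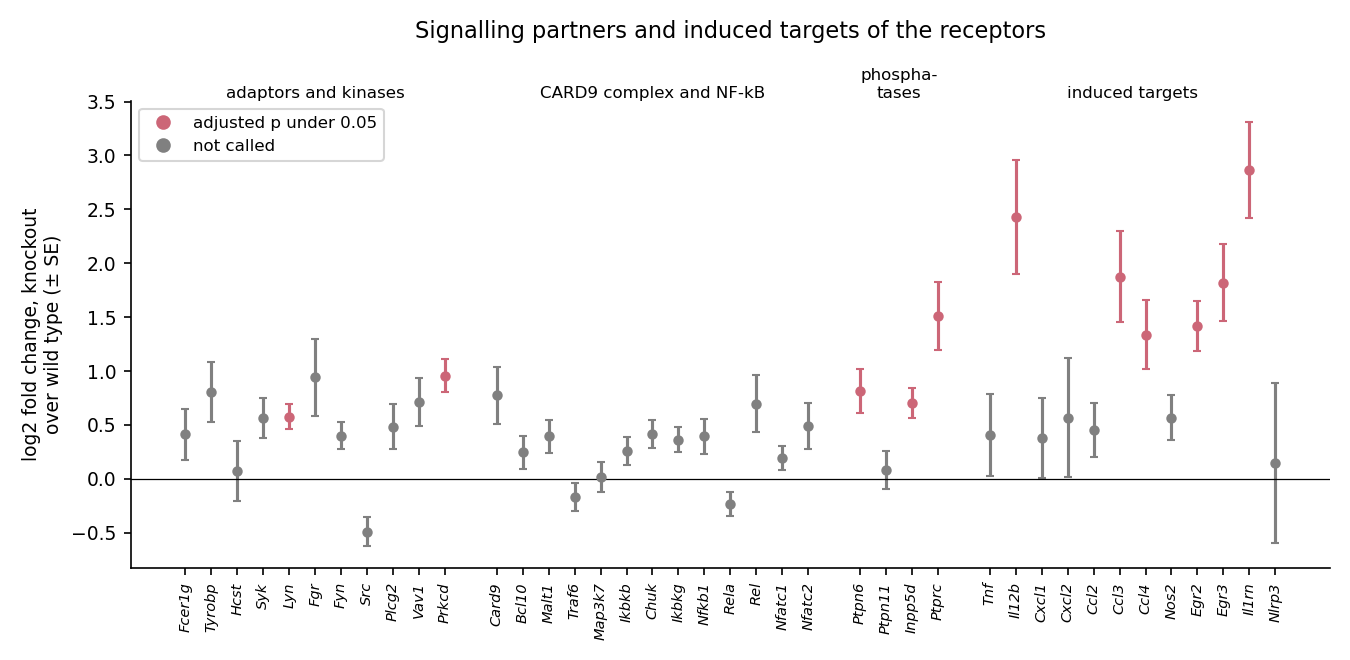
Log2 fold change, knockout over wild type, with its standard error for the tested genes of 4 lists: adaptors and kinases, CARD9 complex and NF-kB, phosphatases, and induced targets. Red points passed an adjusted p of 0.05: 2 of 11, 0 of 13, 3 of 4 and 6 of 12.

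Of 19 genes known to be induced through these receptors, 12 reached the filter. Of these 12, 6 rose and none fell (background 4.76% and 2.65% of tested genes), with a median log2 fold change of 0.95. The 5 with the smallest p were Il1rn, the interleukin-1 receptor antagonist (1.64 ± 1.07 to 11.7 ± 0.976 CPM, edgeR adjusted p = 0.0154), the transcription factors Egr2 (2.64 ± 0.562 to 7.002 ± 0.512 CPM, edgeR adjusted p = 0.0174) and Egr3 (edgeR adjusted p = 0.0269), Il12b and the chemokine Ccl3. Il12b was read at 2, 1 and 3 counts in wild type against 7, 14 and 12 in knockout, so its log2 fold change of 2.43 (edgeR adjusted p = 0.0335) rests on few counts. It reached the filter level in no wild-type library and entered the test only through the knockout libraries. Ccl3 went from 0.608 ± 0.189 to 2.14 ± 0.894 CPM (edgeR adjusted p = 0.0360). Egr3 reached the filter level in only 1 wild-type library and Ccl3 in 2, so both entered the test only with knockout libraries added. The remaining called gene, named after its values were seen, was Ccl4 (edgeR adjusted p = 0.0415). Among cytokine targets Tnf was at 1.43 ± 0.209 and 1.83 ± 0.860 CPM, with overlap (0.41, edgeR adjusted p = 0.523), and Il1b, with 13, 2 and 8 counts against 4, 16 and 5, was too low to be tested. Csf3 had no count in any library.

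Elsewhere in the family, 27 of 43 other C-type lectin genes were tested. Of the 27, 4 rose and 1 fell (background 4.76% and 2.65% of tested genes), with a median log2 fold change of 0.22. Cd72, an inhibitory lectin of B cells and macrophages, rose from 2.64 ± 0.277 to 9.30 ± 0.684 CPM (log2 fold change 1.82, SE 0.20, edgeR adjusted p = 0.0119). Cd69, a lectin of activated leukocytes, rose from 0.332 ± 0.0904 to 1.40 ± 0.115 CPM (edgeR adjusted p = 0.0217), but like Il12b it entered the test only through the knockout libraries. Clec1a, known from endothelium and myeloid cells, rose from 6.90 ± 0.155 to 11.97 ± 1.299 CPM (edgeR adjusted p = 0.0311), and Mrc1, the mannose receptor, from 75.5 ± 21.0 to 138 ± 10.7 CPM (edgeR adjusted p = 0.0335). Clec2d, a ligand of an inhibitory receptor of natural killer cells, fell from 337 ± 40.8 to 207 ± 35.4 CPM (log2 fold change −0.70, SE 0.16, edgeR adjusted p = 0.0372). Mgl2, the paralog of Clec10a, was at 62.3 ± 14.4 and 58.1 ± 5.93 CPM (−0.10, edgeR adjusted p = 0.750). Of the genes of the Clec4 cluster outside the set, Clec4b1 had 12.3, 10.2 and 5.15 CPM against 13.6, 13.7 and 16.1 CPM (edgeR adjusted p = 0.176). Clec4a4 was counted at 1, 2 and 1 against 3, 5 and 7, and Clec4b2 at 0 to 2 in each library, and neither was tested. The adaptor, CARD9, phosphatase, target and lectin lists held 11, 13, 4, 12 and 27 tested genes. Over these lists together 15 genes rose (background 4.76% of tested genes), Mrc1 of the resident macrophage list among them. Of these, 2 (Il12b and Cd69) were at the filter level in no wild-type library, and 2 (Ccl3 and Egr3) in only 1 or 2. Without wild-type replicate 2, knockout replicate 2 or knockout replicate 3 the count of genes that rose was 0. Without knockout replicate 1 it was 1. The same fits called 0, 1, 1 and 41 of all tested genes higher.

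Outside the set, the 5 genes whose log2 levels followed the mean standardised profile of the 10 members most closely over the 6 libraries were Ctss (Pearson r 0.998), Nars (0.997), Acer3 (0.997), Ikbkg (0.997) and Ncf4 (0.997), out of 10705 genes of at least 5 CPM. Ctss, which encodes cathepsin S and is on the macrophage list, stood at 107, 79.8 and 36.9 CPM in wild type against 259, 285 and 247 CPM in knockout (edgeR adjusted p = 0.0225). Nars, a cytosolic aminoacyl-tRNA synthetase, followed the profile at a small amplitude (101.5 ± 6.59 and 115 ± 1.257 CPM, log2 fold change 0.19, edgeR adjusted p = 0.296). These correlations describe 6 libraries that share the genotype difference and the spread of wild type.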

How the data were processed

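Gene counts from 6 libraries of inguinal white adipose tissue were analysed. Per the labels' protocols, TRIzol RNA went into TruSeq RNA v2 libraries, a kit without strand marking, read from one end over 75 bases. The deposited values are raw whole-number counts per gene symbol. The submitters' processing notes name HISAT2 2.1.0, HTSeq 0.13.5, DESeq2 1.26 and mm10. No source used here gives the annotation or the counter's settings. Reads assigned to no feature (8.85% to 14.7% of feature, no-feature and ambiguous reads) and the other summary lines stayed out of library sizes and tests.

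Counts were fitted in R 4.3.3 with edgeR 4.0.16 (filterByExpr, a cutoff of about 0.508 CPM in 3 libraries, trimmed mean of M-values scaling, robust quasi-likelihood F test, all 6 libraries, no covariates, adjusted over 14065 genes, called under 0.05). The fit was also run on simulated counts, drawn independently for each gene and library. Apart from depth, that simulation holds no difference shared by the genes of a library. It therefore does not bear on how far the calls depend on single libraries. The SE is the size of the log2 fold change over the root of F. Replicates of a group differed by 3.27 to 23.1 times sampling noise (median over genes whose pair of libraries held 50 counts or more), so none was treated as a copy. Positions and exon lengths came from GENCODE M21. The members, the gene lists and the rule for named genes (all members, at most 5 called genes a pathway list and 12 set genes, at most 2 genes a cell type list, and the 5 genes most like the members) were chosen with earlier results of these data known. Ptpn11, Csf1r, Mgl2, Ngp, Ly6g, Csf3, Ccl4, Ccl21a, Lpl, Plin2, Fabp5 and Cst3 are named outside that rule, after their values were seen. The same holds for Csf3r, S100a8, S100a9 and Mmp9. One gene of the adaptor and kinase list is not reported here and was left out of its counts. Alternatives were other scalings, DESeq2 1.42.0, limma-voom (limma 3.58.1), other filters, no robust estimation, thinning, the replicate number as a block, and each library left out.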

Additional observations from a re-analysis of the deposited data

How the results depend on the processing

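No member changed direction under any of the alternatives that gave it a value. Beside the 4 members called higher with edgeR, DESeq2 called 7 (7.2% of the genes it tested were called higher), adding Clec4a2, Clec4a1 and Clec4a3. Leaving out each library in turn gave 0 to 8 called members and 0 to 15 pathway genes called higher, against 15 with all libraries, while the calls over all genes ranged from 0 to 1434 higher, against 669. Without the 2 libraries highest in muscle transcripts, wild-type replicate 2 and knockout replicate 3, an alternative chosen after seeing the data, 0 members and 0 pathway genes were called (2 libraries against 2, with 1 called gene in all), while the members' median log2 fold change was 0.96. That median ranged from 0.85 to 1.18 over all alternatives. Over the alternatives the adjusted p ranged from 3.19e-06 to 0.268 for Clec4d, 0.00515 to 0.306 for Clec4n, 0.000304 to 0.312 for Clec7a, 7.07e-05 to 0.294 for Clec12a and 0.00572 to 0.322 for Clec4a3. The difference between activating and inhibitory receptors was 0.43 with a pseudocount of 0.1 CPM and 0.02 with 1 CPM, against 0.18, and 0.10 to 0.28 with each library left out in turn. With thinned libraries 9 of the 10 members did not overlap between groups, but the share of all tested genes was not counted for that setting. Higher calls made up 64.2% of all calls with edgeR, 54.0% with DESeq2 and 51.8% with the replicate block (1387 higher and 1289 lower, against 669 and 373). With the replicate number as a block 6 members were called (background 9.86% of tested genes), Clec4a2 and Clec10a in addition, and 20 pathway genes were called higher. Deviations of same-numbered libraries correlated at 0.17, −0.10 and 0.30, and wild-type replicate 1 correlated best with knockout replicate 2. These few values cannot settle whether the numbers mark pairs, and the samples were not treated as pairs. Depth limits Clec4e most, at 4 to 14 counts a library.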

Other observations

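Other cell types, mast cells among them, were followed by lists of their own. The mast cell list (6 genes, 5 tested, none called) summed to 35.6 to 43.0 CPM in wild type against 60.8 to 61.6 CPM in knockout, but without Kit, which made up 23.4% to 60.6% of the sum, the ranges were 14.02 to 33.0 CPM and 27.1 to 39.1 CPM and overlapped. The list of T and natural killer cells (7 of 8 listed genes in the files, all 7 tested, none called) summed to 8.21 to 13.7 CPM and 10.8 to 30.7 CPM, and the list of B cells and lymph node (7 of 8 listed genes in the files, 5 tested, none called) to 4.97 to 11.4 CPM and 8.91 to 11.3 CPM, with the lymph node chemokine Ccl21a at 0 in every library. In the list of fibroblast and endothelial genes Dcn, which encodes the matrix proteoglycan decorin, rose (543 to 918 CPM, edgeR adjusted p = 0.0313) and the other 7 were not called. Of the 8 adipocyte genes 3 fell (background 2.65% of tested genes), among them Cfd (log2 fold change −2.06, edgeR adjusted p = 0.0144) and Retn (−0.98, edgeR adjusted p = 0.0229). None of the 8 muscle genes was called.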
